A study of Rattus norvegicus with 17 samples.

Results

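Matrix metalloproteinases are zinc-dependent proteases that cells secrete as inactive proenzymes and that cut collagens, proteoglycans and other proteins of the extracellular matrix once their propeptide is removed. Collagenases (Mmp8 and Mmp13 here) can cut the intact triple helix of fibrillar collagen, stromelysins (Mmp3 and Mmp10) have broad substrates and can activate other proenzymes, Mmp12 is the elastase of macrophages, and Mmp7 (matrilysin) is secreted mainly by epithelial cells. In inflamed and ulcerated colon such enzymes are known from stromal cells, infiltrating leukocytes and wound-edge epithelium. The 6 genes were found among the array's non-control probes by gene name, and each of the 6 had 1 probe. All 6 passed the filter on low signal (well above background on at least 8 arrays), 5 of them on every array and Mmp3 only through the low calcium rats, out of 35535 gene names on the array, of which 23149 had a tested probe.

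The animals were female rats transgenic for human HLA-B27 and human β2-microglobulin, on an inbred Fisher 344 background, a model that develops colitis, and they were 8 to 10 weeks old when the experiment began. On a purified, humanized Western-type diet, 8 rats received 120 mmol calcium per kg (high calcium, with the extra calcium replacing glucose) and 9 rats received 30 mmol per kg (low calcium). Every rat carried the transgenes, so the comparison says nothing about rats without them. RNA from scraped colon mucosa of each rat was labelled with Cy5 and hybridised to its own 2-colour array beside a Cy3 pool of all animals. A value is therefore the log2 ratio of 1 rat to that pool, and a difference is high minus low calcium. No array swapped the dyes.

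The arrays were alike in signal, with median Cy5 signals of 146.8 to 180.8 and 60% to 72% of probes well above background. All 11 colonic epithelial markers had signal, as did 7 of the 8 smooth muscle markers found on the array, so the scrapings held more than epithelium. High calcium rat 3 and low calcium rat 16, both on slide 1, stood apart from their groups in earlier results of these data, and they did so for several of the proteases too. For Mmp13, Mmp10 and Mmp3 the values of rat 3 resembled those of the other diet more than those of its own, and rat 16 was the lowest of its group. The diet labels of both were kept as given, and whether those labels are right was not tested. Results that rest on them are given with and without both. Since these rats were singled out by their values, the tests without them describe the remaining 15 rats and are no independent support.

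The 6 genes lie in 1 cluster on rat chromosome 8, and their promoters are shown because 5 of them, the pair with the largest differences included, hold the same 2 short motifs near the start. The array's annotation placed the probes on the rn3 build at chr8:4168554-4168613 for Mmp13, chr8:4259057-4259413 for Mmp12, chr8:4325061-4325526 for Mmp3, chr8:4373403-4374134 for Mmp10, chr8:4410891-4410950 for Mmp8 and chr8:4533647-4533706 for Mmp7. Which exon or UTR each probe covers was not analysed here. The RefSeq promoters below (build GRCr8, plus strand, 110 bases before the annotated start and 20 bases from it on) follow that same order. Capitals mark the AP-1 letters TGAGTCA on either strand and the TATA box letters TATAAA on the forward strand. AP-1 is the dimer of Fos and Jun family proteins, through which cytokines and growth factors are known to induce several metalloproteinases.

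Mmp13: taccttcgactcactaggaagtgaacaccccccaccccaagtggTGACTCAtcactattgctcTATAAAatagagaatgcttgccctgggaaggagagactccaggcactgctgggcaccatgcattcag
Mmp12: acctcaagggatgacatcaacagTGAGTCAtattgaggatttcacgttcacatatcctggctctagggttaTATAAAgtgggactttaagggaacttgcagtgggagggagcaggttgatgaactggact
Mmp3: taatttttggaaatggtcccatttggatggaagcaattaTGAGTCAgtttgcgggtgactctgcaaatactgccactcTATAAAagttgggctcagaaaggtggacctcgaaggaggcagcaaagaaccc
Mmp10: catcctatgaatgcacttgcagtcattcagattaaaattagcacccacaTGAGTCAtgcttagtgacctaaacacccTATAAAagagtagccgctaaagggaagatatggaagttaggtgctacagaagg
Mmp8: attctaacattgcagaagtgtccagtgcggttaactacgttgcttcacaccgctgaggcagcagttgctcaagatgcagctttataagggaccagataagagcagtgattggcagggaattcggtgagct
Mmp7: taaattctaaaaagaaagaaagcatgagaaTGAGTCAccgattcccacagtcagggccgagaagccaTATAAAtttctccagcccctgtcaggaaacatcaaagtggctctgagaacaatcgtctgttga

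These windows run over chr8:12782719-12782848 for Mmp13, chr8:12866542-12866671 for Mmp12, chr8:12925171-12925300 for Mmp3, chr8:12974597-12974726 for Mmp10, chr8:13008780-13008909 for Mmp8 and chr8:13132933-13133062 for Mmp7. The AP-1 letters stood within 100 bases before the start in 5 of the 6 promoters, against 1.68% of 33469 RefSeq promoters of the same length. In Mmp13 they began 66 bases before the start, in Mmp12 87, in Mmp3 71, in Mmp10 61 and in Mmp7 80 bases before it. Only Mmp13 held them on the reverse strand. TATAAA stood within the same 100 bases in the same 5 promoters, against 3.94% of all promoters. Mmp8 held neither string of letters in its whole window of 250 bases before to 50 after the start. Only exact letters were searched, and the Mmp8 sequence above does hold the near match tataag. The letters AGGAAG, on either strand, which PEA3 and other Ets factors can bind, stood in 4 of the 6 whole windows (Mmp13, Mmp3, Mmp8 and Mmp7), against 34.5% of promoters, and in Mmp13 they lay 95 bases before the start. No AP-1 match overlapped a TATA or AGGAAG match. A match of letters is a description and does not show that a factor binds.

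**Figure D1:**
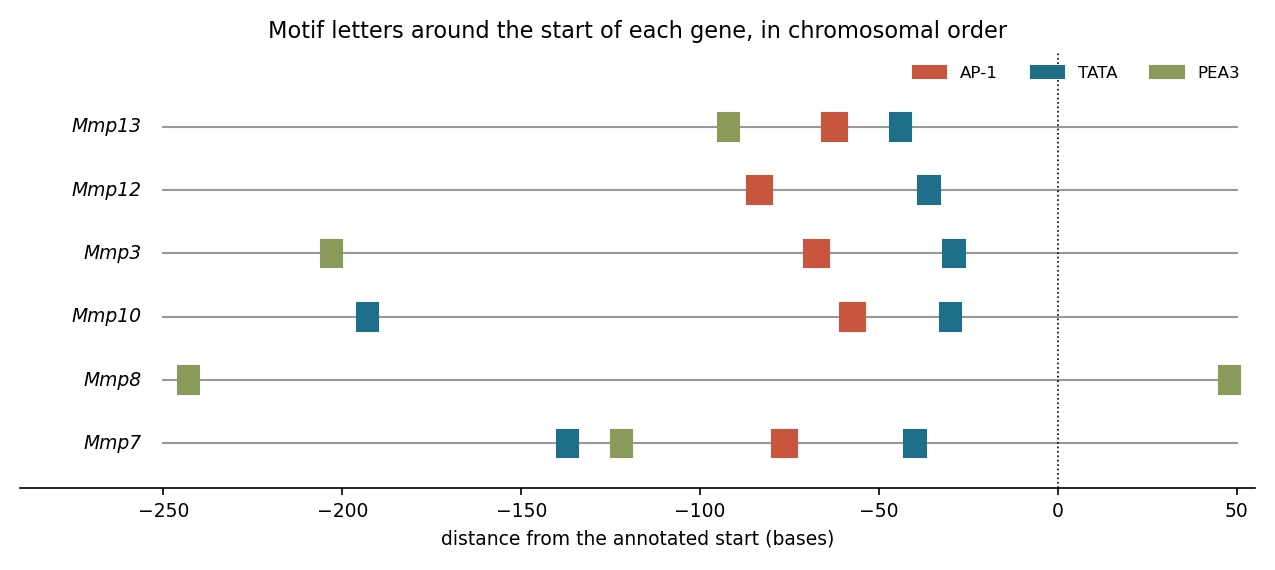
Position of the AP-1 letters, the TATA letters and the PEA3 letters in the 6 RefSeq promoters, from 250 bases before to 50 bases after the annotated start (dotted line at 0), genes in chromosomal order. In 5 genes an AP-1 match lies 61 to 87 bases before the start with a TATA match downstream of it, while Mmp8 has neither of these exact strings of letters.

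All 6 proteases had lower levels in the high calcium rats, by 3.83-fold for Mmp13, 3.09-fold for Mmp10, 1.36-fold for Mmp7, 1.29-fold for Mmp12 and 1.19-fold for Mmp8. For Mmp3, dim on 5 of 8 high calcium arrays, the size depended on the processing, from -0.64 to -2.38 on the log2 scale. Over all 17 rats, 0 of the 6 passed limma's test at an adjusted p of 0.05, where 0% of the 27101 tested probes passed in either direction. At an unadjusted p of 0.05, all 5 members with signal on every array were lower and 0 higher, against 4.84% of all tested probes lower and 3.95% higher. Their median difference was -0.44, against 0.01 for all tested probes, of which 46% were lower. Mmp3 is left out of this count and median, since a gene that meets the filter through the group where it is high had to differ. Mmp13 and Mmp10 had the most negative estimates of all 27101 probes, and only 6 probes (0.0221%) were lower by at least 1 on the log2 scale. Named after their values were seen, the other 4 were Nppb at -1.17 ± 0.21, Arg1 at -1.20 ± 0.33, Dcn at -1.03 ± 0.22 and Mmp9 at -1.01 ± 0.21 (SE). In such bulk RNA, fewer cells of a type and less RNA per cell cannot be told apart.

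**Figure D2:**
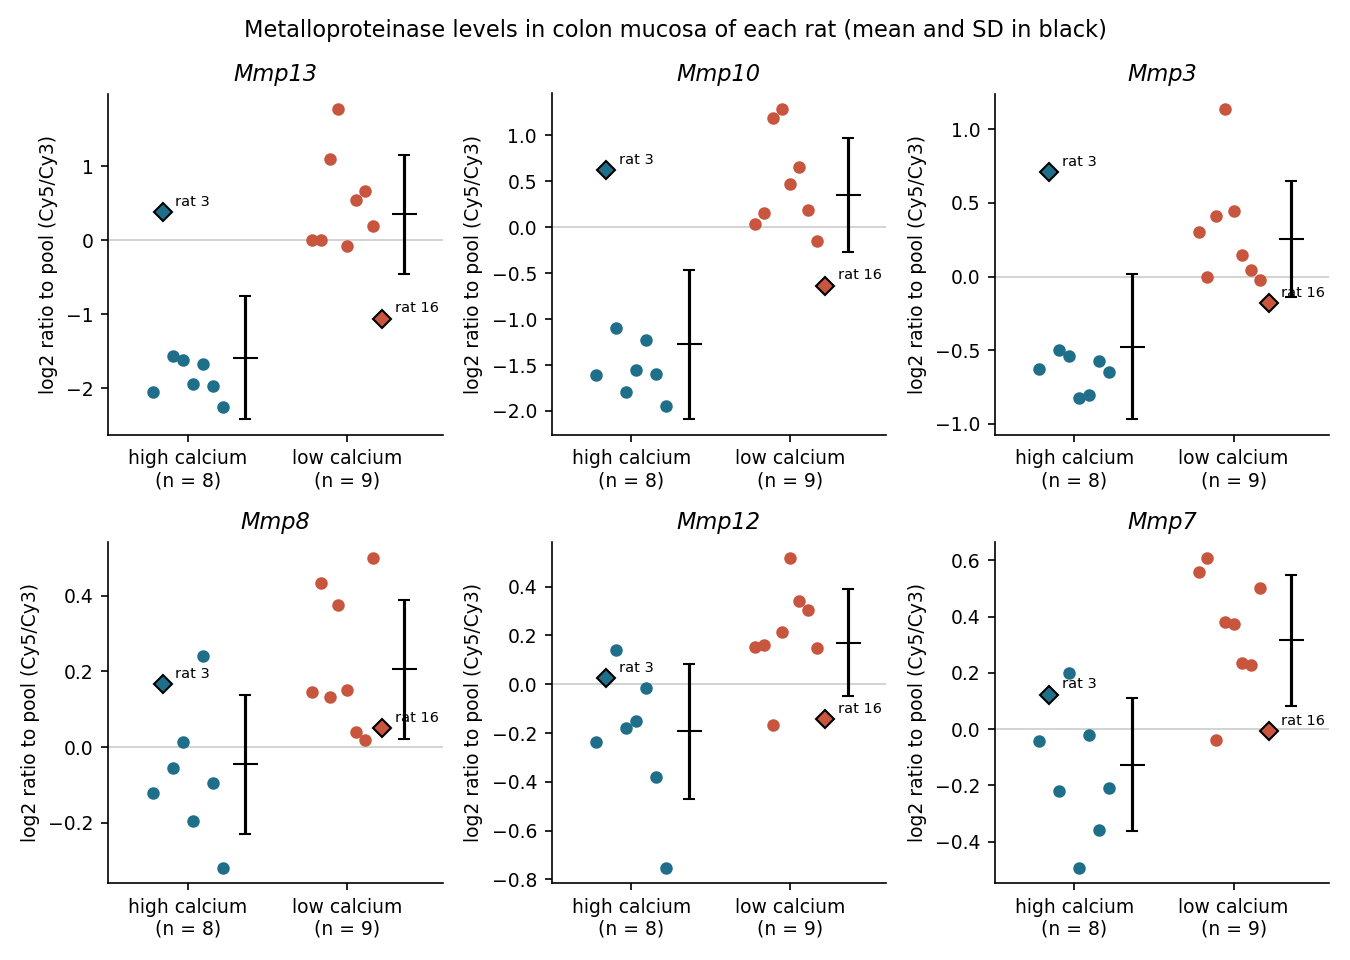
Level of each protease in each rat as the log2 ratio to the pool (y axis), high calcium rats on the left (n = 8) and low calcium rats on the right (n = 9), with mean and SD in black and rats 3 and 16 as diamonds. For Mmp13, Mmp10 and Mmp3, 7 of the 8 high calcium points lie under the lowest low calcium point, and rat 3 lies among the low calcium rats.

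Mmp13, the main interstitial collagenase of rodents, showed the largest difference with the processing used here, while Mmp10 was ahead of it in the scanner software's processed signals (-2.49 for Mmp10 and -2.41 for Mmp13). Its log2 ratio was -2.26 in the lowest, -1.80 in the median and 0.39 in the highest high calcium rat, against -1.06, 0.20 and 1.77 in the lowest, median and highest low calcium rat. The groups overlapped through rat 3, since the next highest high calcium rat had -1.56, and 7 of 8 stayed under the whole low calcium group. The means were -1.58 ± 0.83 in high calcium rats (SD, n = 8) and 0.35 ± 0.80 in low calcium rats (SD, n = 9). The difference was -1.94 ± 0.34 (SE; 95% interval -2.64 to -1.24), with a limma adjusted p of 0.098. The background-subtracted Cy5 signal had a median of 234 in high calcium rats (range 122 to 1667) and 1279 in low calcium rats (range 343 to 3632), and it was well above background on every array.

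Mmp8, the collagenase stored in neutrophil granules, showed the smallest difference of the 6 with the processing used here. It ranged from -0.32 over a median of -0.08 to 0.24 in high calcium rats, against 0.02, 0.14 and 0.50 in low calcium rats. The groups overlapped in the upper part of the high calcium range, where rats 14 and 3 reached low calcium levels, and 6 of the 8 high calcium values were under the lowest low calcium value. The difference was -0.25 ± 0.08 (SE; 95% interval -0.42 to -0.08; limma adjusted p = 0.32). Its net Cy5 signal was dim in both groups, with a median of 87.4 in high calcium and 141 in low calcium rats, and the size of the difference depended on the processing. It was -0.42 with an offset of 0, -0.76 from the scanner software's processed signals, -0.41 from Cy5 alone and -0.43 from the deposited series matrix. In all of these it was larger than that of Mmp12 (-0.37, -0.35, -0.39 and -0.35), so its place in the order is not fixed.

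Mmp10 (stromelysin 2), known from migrating epithelium at wound edges, followed Mmp13 in size. Its log2 ratio was -1.94 in the lowest, -1.58 in the median and 0.62 in the highest high calcium rat, against -0.64, 0.19 and 1.29 in the lowest, median and highest low calcium rat. Again rat 3 was the high one, the next being -1.10, and the other 7 high calcium values were under the lowest low calcium value. The means were -1.28 ± 0.81 in high calcium rats (SD, n = 8) and 0.35 ± 0.62 in low calcium rats (SD, n = 9), a difference of -1.63 ± 0.30 (SE; 95% interval -2.25 to -1.01; limma adjusted p = 0.098). Net Cy5 signals had a median of 128 in high calcium rats (range 57.6 to 1030) and 800 in low calcium rats (range 212 to 1443).

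Mmp3 (stromelysin 1), which fibroblasts make and which can activate procollagenases, was well above background on 3 of 8 high calcium arrays and on 9 of 9 low calcium arrays. Its log2 ratio was -0.82 in the lowest, -0.60 in the median and 0.71 in the highest high calcium rat, against -0.18, 0.15 and 1.14 in the lowest, median and highest low calcium rat. Rat 3 lay above all but 1 of the low calcium rats, and the other 7 high calcium rats lay below all of them. The difference was -0.73 ± 0.18 (SE; 95% interval -1.11 to -0.35; limma adjusted p = 0.19). The size depended on the background correction, with -1.34 at an offset of 0 and -2.38 from the scanner software's processed signals.

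Mmp7, the epithelial matrilysin, which in mouse small intestine activates defensins in Paneth cells, was bright in every rat. It ranged from -0.49 over a median of -0.12 to 0.20 in high calcium rats, against -0.04, 0.37 and 0.61 in low calcium rats. The groups overlapped, with 7 of 9 low calcium rats above every high calcium rat. The difference was -0.44 ± 0.10 (SE; 95% interval -0.65 to -0.23; limma adjusted p = 0.14), and median net Cy5 signals were 6629 in high calcium rats and 8876 in low calcium rats.

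Mmp12, the macrophage elastase, was also bright in every rat. It ranged from -0.75 over a median of -0.17 to 0.14 in high calcium rats, against -0.17, 0.16 and 0.52 in low calcium rats, and 7 of 9 low calcium rats lay above every high calcium rat. The difference was -0.36 ± 0.11 (SE; 95% interval -0.58 to -0.14; limma adjusted p = 0.26). Unlike for the stromelysins, rat 3 was not the highest high calcium rat for Mmp12, where rat 9 was, nor for Mmp7, where rat 10 was.

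**Figure D3:**
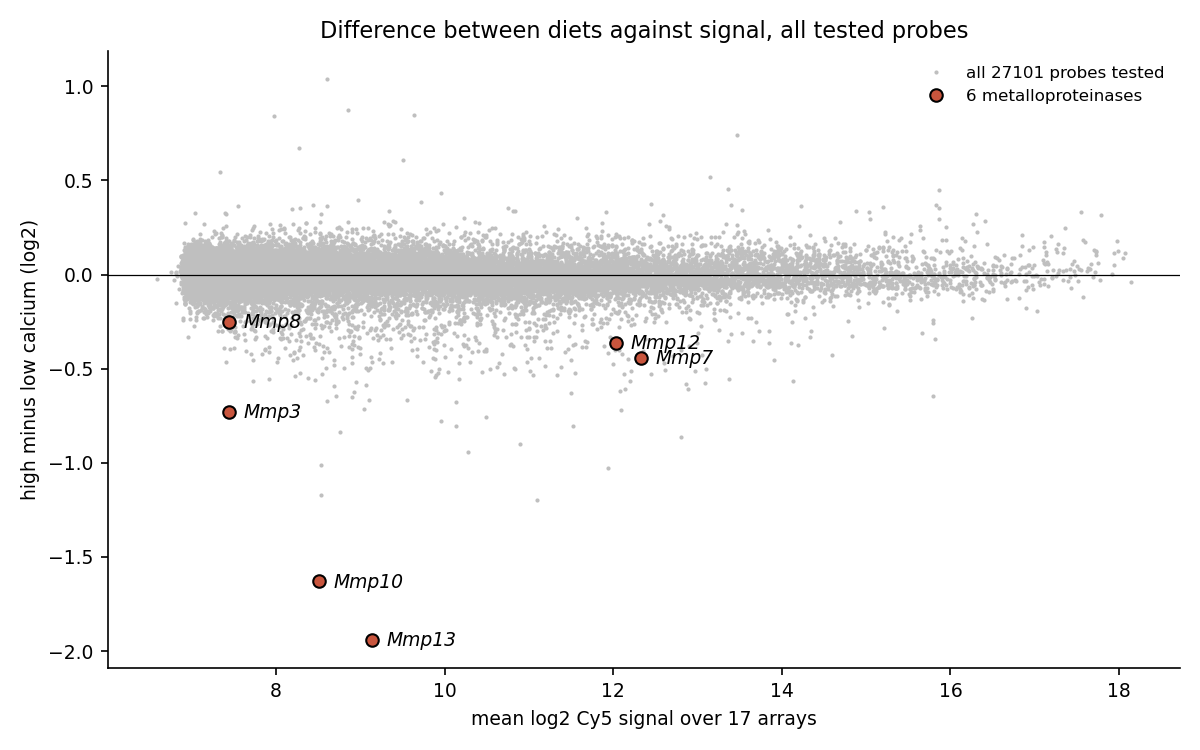
Difference between diets (high minus low calcium, log2, y axis) against mean log2 Cy5 signal over 17 arrays (x axis) for all 27101 tested probes in grey, with the 6 proteases marked. Mmp13 at -1.94 and Mmp10 at -1.63 lie below every grey point, and the other 4 lie between -0.73 and -0.25.

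Without rats 3 and 16, 3 of the 5 members with signal on every array passed limma's adjusted threshold, all lower, against 1.15% of all tested probes that passed lower and 0.0553% that passed higher. Mmp13 then fell by 2.39 on the log2 scale (adjusted p = 2.14e-05), Mmp10 by 2.02 (adjusted p = 2.14e-05) and Mmp7 by 0.52 (adjusted p = 0.011). Mmp12 had a difference of -0.43 (adjusted p = 0.057) and Mmp8 of -0.30 (adjusted p = 0.097), and neither passed. Every one of the 7 high calcium rats then lay below every one of the 8 low calcium rats for Mmp13 and Mmp10, as for 0.347% of tested probes. Mmp3 also passed (-0.95, limma adjusted p = 0.0015) and separated the diets, but is not counted, since it met the filter through the low calcium arrays. Because rats 3 and 16 were singled out by their values, none of these results, for any member, is independent support. With all 17 rats, 0 of the 6 separated the diets so, as did 0.0148% of tested probes. Without rat 3 alone, the same 3 of the 5 passed (limma adjusted p 0.00064 to 0.0335), against 0.653% of probes that passed lower. Mmp3 passed there too (limma adjusted p = 0.0054) but is not counted, because of its entry through the low calcium arrays. Without rat 16 alone, Mmp13 (adjusted p = 0.02) and Mmp10 (adjusted p = 0.032) passed, against 0.14%.

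Slide is a batch that can be examined, since slides 1 to 4 each held 2 high calcium and 2 low calcium rats, and slide 5 held low calcium rat 1 only. Within slides 1 to 4, Mmp13 differed by -0.31, -3.03, -2.03 and -2.54, Mmp10 by -0.25, -2.68, -1.96 and -1.79, and Mmp3 by 0.13, -1.30, -1.11 and -0.62. Slide 1, which held rats 3 and 16, gave the smallest difference for these 3 genes, and for Mmp3 the opposite sign. The other high calcium rat on slide 1, rat 2, had -2.05 for Mmp13, against 0.01 in low calcium rat 4. Mmp7 differed by -0.26, -0.18, -0.56 and -0.65, Mmp12 by -0.12, -0.04, -0.51 and -0.79, and Mmp8 by -0.22, -0.28, -0.07 and -0.47, so that these 3 were lower at high calcium on all 4 slides. With slide as a block the differences were -1.98 for Mmp13 and -1.67 for Mmp10, both with a limma adjusted p of 0.24.

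**Figure D4:**
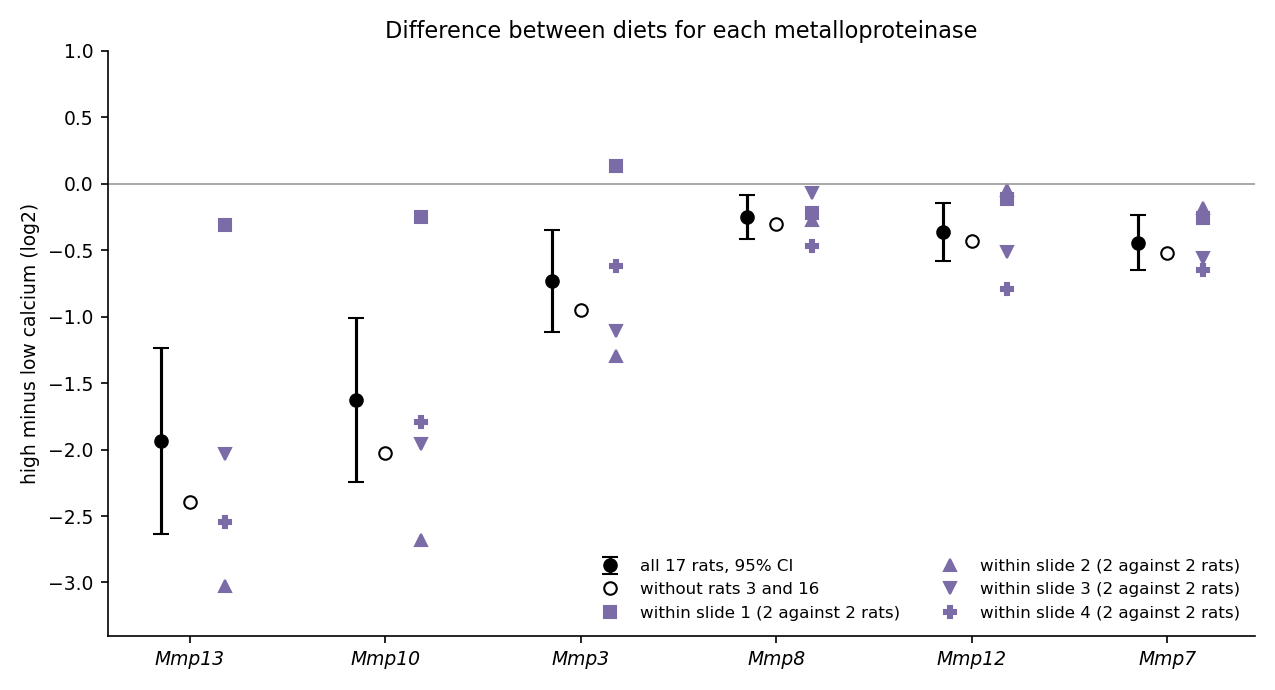
Difference between diets (high minus low calcium, log2) for each protease, with the 95% interval over all 17 rats (filled circle), the value without rats 3 and 16 (open circle) and the values within slides 1 to 4, each from 2 against 2 rats. Slide 1 lies nearest to 0 for Mmp13 at -0.31 and Mmp10 at -0.25 and above 0 for Mmp3 at 0.13.

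Among rats of the same diet, Mmp13, Mmp10 and Mmp3 correlated in pairs over all 17 rats, but only Mmp13 with Mmp10 passed without rat 3. After each diet's mean was removed, Mmp13 and Mmp10 correlated over the 17 rats with Pearson's r = 0.928 (permutation p = 3e-05, adjusted p = 0.00045 over 15 pairs) and Spearman's rho = 0.777 (permutation p = 0.00056, adjusted p = 0.0084). Within the diets r was 0.968 in high calcium rats (exact permutation p = 0.0057, n = 8) and 0.895 in low calcium rats (exact permutation p = 0.0013, n = 9). Among high calcium rats, rat 3 lay far above the rest for both genes. It had 0.39 for Mmp13 with the next at -1.56, and 0.62 for Mmp10 with the next at -1.10. The r of high calcium rats without rat 3 was not computed. Without rats 3 and 6, which lay farthest from the median of Mmp13, r was 0.814 (permutation p = 0.0029), and with slide means removed too it was 0.951 over 16 rats. All members were read from the same 17 arrays, so that array effects are shared.

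Mmp10 and Mmp3 correlated with r = 0.871 (permutation p = 0.00046, adjusted p = 0.0034) and rho = 0.610 (permutation p = 0.012, adjusted p = 0.052), and with r = 0.598 without the 2 farthest rats (permutation p = 0.042). Mmp13 and Mmp3 correlated with r = 0.859 (permutation p = 0.0011, adjusted p = 0.0054) and rho = 0.495 (permutation p = 0.051, adjusted p = 0.15), but r was 0.466 without rats 3 and 6 (permutation p = 0.15), so that this relation rests on those rats. Outside this trio only Mmp7 and Mmp8 passed, with r = 0.633 (permutation p = 0.0098, adjusted p = 0.037) and rho = 0.608 (permutation p = 0.014, adjusted p = 0.052), and r was again 0.633 without the 2 farthest rats. This pair did not pass in 13 of 27 alternatives, among them median centring (r = 0.389, permutation test, adjusted p = 0.19), the scanner software's processed signals (r = 0.429, adjusted p = 0.15) and the deposited series matrix (r = 0.476, adjusted p = 0.2). The other 11 of 15 pairs did not pass, with r of 0.137 to 0.411. The only pair of 15 that passed without rat 3, or without rats 3 and 16, was Mmp13 with Mmp10. Without both it stood at r = 0.801 (permutation test, adjusted p = 0.03).

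**Figure D5:**
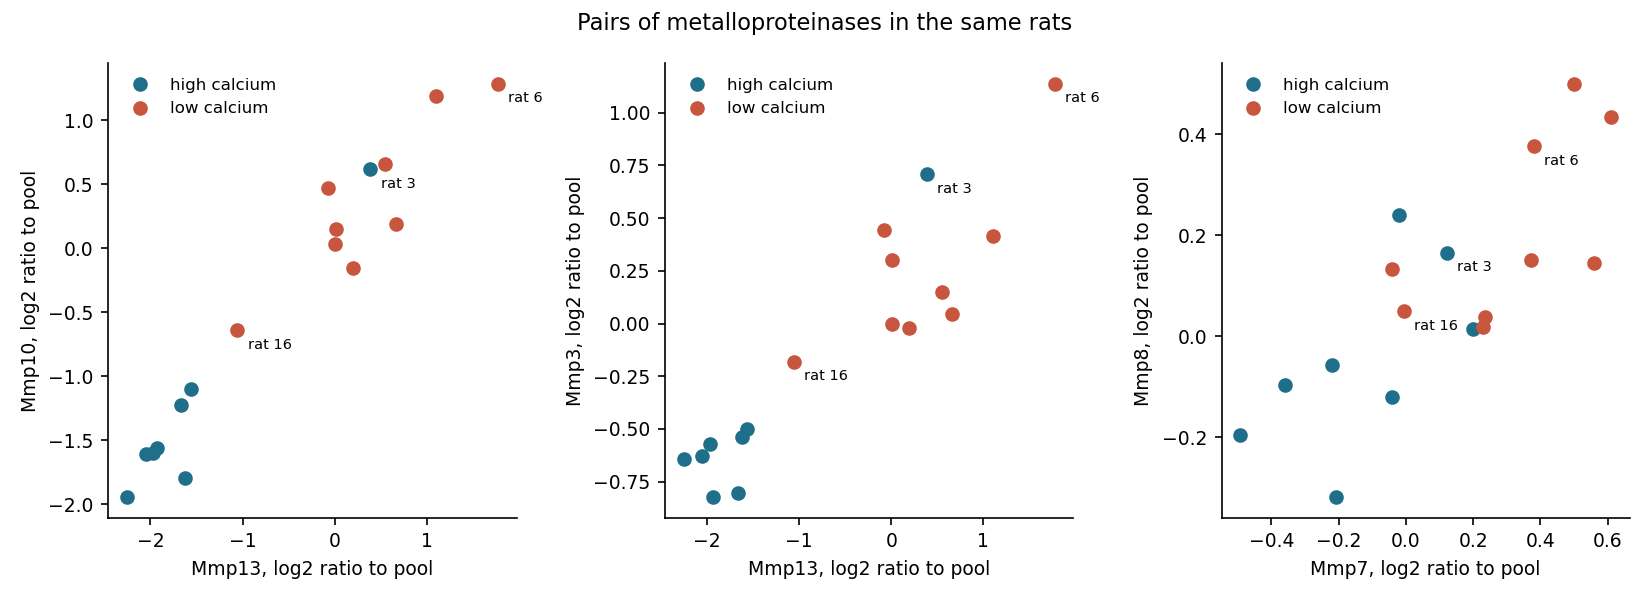
Log2 ratio to the pool of 2 proteases in the same rat, for Mmp13 with Mmp10, Mmp13 with Mmp3 and Mmp7 with Mmp8, high calcium rats in blue and low calcium rats in red. Rat 3 lies among the low calcium rats in the Mmp13 and Mmp10 panel at 0.39 and 0.62, and rat 16 lies between the groups at -1.06 and -0.64.

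The genes whose diet-centred values were most like each member were searched among 11561 gene names over the 17 rats, and they are given as descriptions. For Mmp13 they were Mmp9 (r = 0.933), Mmp10 (0.928), Serpine2 (0.890), Myh10 (0.872) and Krt7 (0.871). Mmp9 is gelatinase B, Serpine2 encodes protease nexin 1, Myh10 a nonmuscle myosin heavy chain and Krt7 a keratin of simple epithelia. For Mmp10 they were Mmp13, Lama4 (0.892), Cldn9 (0.885), Inhba (0.882) and Mmp3 (0.871). For Mmp3 they were Myh10 (0.884), Inhba (0.872), Mmp10, Mmp9 (0.866) and Mmp13 (0.859). Inhba encodes an activin subunit. The r of these pairs without rats 3 and 16 lay between 0.592 for Mmp13 with Krt7 and 0.858 for Mmp13 with Mmp9.

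The other members had different lists. For Mmp12 the genes were Cd2 (0.924), Bcl2a1 (0.905), Celsr1 (0.895), Cst7 (0.894) and Icam1 (0.890), of which Cd2 is a T and NK cell adhesion receptor, Cst7 encodes cystatin F of leukocytes and Icam1 a leukocyte adhesion ligand. For Mmp8 they were Lilrb2 (0.879), a leukocyte receptor, Sema3c (0.866), Ccdc82 (0.854), Htr7 (0.839) and Ly6cl1 (0.838). For Mmp7 they were Arrdc3 (0.817), Lgals3bp (0.814), Lonrf1 (0.812), Gna15 (0.793) and Ift22 (0.792). No gene stood in the lists of both the Mmp13, Mmp10 and Mmp3 trio and the other 3.

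Along chromosome 8, RefSeq places 4 further metalloproteinase genes inside the cluster. Mmp1b, between Mmp12 and Mmp3, had a difference of 0.07 ± 0.05 (SE; limma adjusted p = 0.72), and Mmp1, Mmp27 and Mmp20 were above background on 0 arrays. Of the 5 flanking genes on either side, 5 had tested probes, from 0.08 ± 0.09 for Casp12 to -0.16 ± 0.05 for Tmem123 (SE). Dcun1d5 was at -0.13, Birc2 at -0.08 and Birc3 at 0.01. Of these, 0 passed limma's adjusted threshold, which 0% of all tested probes passed, so it does not set them apart from the 6 proteases. Tmem123 and Dcun1d5 were lower at an unadjusted p of 0.05, as were 4.84% of all tested probes, while Casp12, Birc2 and Birc3 were not.

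Outside the 6, 9 of 16 metalloproteinases in a list of the others were tested; the list did not hold Mmp1b, given above with a difference of 0.07. Of these 9, 6 were lower and 3 higher, 4 were lower at an unadjusted p of 0.05 and 0 passed after adjustment, and their median was -0.15. For this list and those after it, the shares over all tested probes were 46% lower, with 4.84% lower and 3.95% higher at that p. Mmp9, a gelatinase of neutrophils and macrophages, differed by -1.01 ± 0.21 (SE; limma adjusted p = 0.14), with -0.72 in high calcium rats and 0.29 in low calcium rats. Mmp14, the membrane-bound activator of Mmp2, differed by -0.35 ± 0.09 (adjusted p = 0.20), Mmp2, the gelatinase of stromal cells, by -0.42 ± 0.12 (adjusted p = 0.24) and Mmp28, an epithelial metalloproteinase, by -0.15 ± 0.06 (adjusted p = 0.445). When rats 3 and 16 were left out 3 of the 9 passed, against 1.15% of all tested probes that passed lower. These were Mmp9 at -1.27, Mmp2 at -0.54 and Mmp14 at -0.43.

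The inhibitors differed by up to -0.31, for A2m, which was larger in size than the difference of Mmp8 (-0.25). All 5 tested were lower, 2 at an unadjusted p of 0.05 and 0 after adjustment, with a median of -0.10. Of all tested probes, 46% were lower, and 4.84% were lower at that p. Reck, a membrane-anchored inhibitor, differed by -0.15 ± 0.05 (SE; limma adjusted p = 0.40), A2m, a plasma protease trap, by -0.31 ± 0.14 (adjusted p = 0.53) and Timp2 by -0.10 ± 0.08 (adjusted p = 0.78). Timp1, a secreted inhibitor of the collagenases and stromelysins, differed by -0.04 ± 0.06 (adjusted p = 0.895), and its sign turned under median centring.

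Of 10 tested genes whose products activate metalloproteinases or control that activation, 7 were lower and 3 higher, 1 was lower at an unadjusted p of 0.05, 0 passed after adjustment, and the median was -0.05. Plau, the urokinase that makes plasmin, differed by -0.41 ± 0.09 (SE; limma adjusted p = 0.14). Plat, the tissue plasminogen activator, differed by -0.23 ± 0.14 (adjusted p = 0.68), Tpsb2, a mast cell tryptase, by -0.06 ± 0.05 (adjusted p = 0.755), and a mast cell protease probe that RefSeq names Mcpt1 and the array names Mcpt2 by 0.20 ± 0.14 (adjusted p = 0.74). Plau passed without rats 3 and 16 (-0.48, adjusted p = 0.0051).

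Of 18 tested cytokines, growth factors and receptors known to induce metalloproteinases, 12 were lower and 6 higher, 3 were lower and 1 higher at an unadjusted p of 0.05, 0 passed after adjustment, and the median was -0.06. The 4 with the smallest p were Tgfb1 at -0.10 ± 0.04, Osm at -0.10 ± 0.05, Il1b at -0.25 ± 0.11 and Bsg, a metalloproteinase inducer on cell surfaces, at 0.13 ± 0.06 (SE; limma adjusted p 0.51 to 0.54). The sign of Osm turned with the Cy5 channel alone. Il6 and Tnf, classical inducers, had -0.03 ± 0.04 and -0.06 ± 0.06 (SE). Il6 was well above background on only 8 arrays, the fewest that the filter allows, so dim signal limits its size.

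Of 17 tested transcription factors, 10 were lower and 7 higher, 3 were lower and 1 higher at an unadjusted p of 0.05, 0 passed after adjustment, and the median was -0.02. Fosl1, a partner of Jun in AP-1, differed by -0.27 ± 0.10 (SE; limma adjusted p = 0.44), Etv4, an Ets factor also called PEA3, by -0.15 ± 0.06 (adjusted p = 0.46), Cebpb by -0.16 ± 0.07 (adjusted p = 0.52) and Runx2 by 0.09 ± 0.04 (adjusted p = 0.555). Cebpb passed without rats 3 and 16 (-0.25, adjusted p = 0.037). Of the gene names matched to a RefSeq promoter, the 116 with AP-1 letters within 100 bases before the start had a median difference of -0.0145. In that set 61.2% were lower, against a median of -0.00104 and 50.7% lower for the 8929 without. The 116 include the 5 proteases that hold these letters, all of them lower, so the set is no independent comparison.

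Most substrates were lower together with the proteases, each gene being read by its brightest probe. Of 20 tested matrix and cell surface substrates, 18 were lower and 2 higher, 14 were lower at an unadjusted p of 0.05, 0 passed after adjustment, and the median was -0.40. Over all tested probes, 46% were lower, and 4.84% were lower at that p. Named because its probes differed, Col4a1 counted as higher at 0.01 ± 0.05, while another of its probes had -0.51 ± 0.115 (SE). The small proteoglycans Dcn and Lum differed by -1.03 ± 0.22 and -0.59 ± 0.13, the fibrillar collagen gene Col1a1 by -0.53 ± 0.12 and the basement membrane gene Nid1 by -0.65 ± 0.15 (SE; limma adjusted p = 0.14 for each of the 4). With rats 3 and 16 left out, 12 of the 20 passed, against 1.15% of all tested probes that passed lower and 0.0553% that passed higher.

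Most markers of fibroblasts, macrophages, neutrophils and endothelium were lower at high calcium beside the proteases. Of 10 tested fibroblast markers, which share Dcn, Lum and 3 collagen genes with the substrates, 10 were lower, 9 at an unadjusted p of 0.05, with a median of -0.44. Beside this and the marker lists below, 46% of all tested probes were lower, with 4.84% lower and 3.95% higher at that p. Their mean per rat ran from -0.66 to 0.18 in high calcium rats and from -0.09 to 0.40 in low calcium rats, and rat 3 was the highest of the first and rat 16 the lowest of the second. Their summed Cy5 signal was 13531 to 26939 in high calcium rats and 21144 to 33161 in low calcium rats. Thy1 was above background on 0 arrays.

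Of 10 tested macrophage markers 9 were lower, 6 at an unadjusted p of 0.05, with a median of -0.26 and a summed signal of 73781 to 124973 in high calcium rats and 103704 to 144298 in low calcium rats. Cd163 was above background on 0 arrays. Of 8 tested neutrophil markers 7 were lower, 3 at an unadjusted p of 0.05, with a median of -0.135 and a summed signal of 12753 to 35145 in high calcium rats and 16142 to 38877 in low calcium rats. Mpo was above background on 0 arrays. For both lists rat 3 was again the highest high calcium rat (0.06 and 0.225) and rat 16 had -0.09 and -0.23.

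Of 11 epithelial markers 3 were lower and 8 higher, 0 at an unadjusted p of 0.05, with a median of 0.08 and a summed signal of 701364 to 770474 in high calcium rats and 638351 to 793285 in low calcium rats. Of 4 tested goblet cell markers 3 were higher, all 3 at an unadjusted p of 0.05, with a median of 0.26. Of 7 smooth muscle markers 4 were lower, with a median of -0.09, and with their mean per rat as a covariate Mmp13 differed by -1.73 and Mmp10 by -1.41 (limma adjusted p = 0.063 for both). Of 4 tested endothelial markers 3 were lower, 2 at an unadjusted p of 0.05, with a median of -0.165 and a summed signal of 2662 to 3956 in high calcium rats and 2874 to 3990 in low calcium rats. The 4 were Vwf at -0.28 ± 0.08, Cldn5 at -0.19 ± 0.08, Kdr at -0.14 ± 0.10 and Cdh5 at 0.03 ± 0.04 (SE). Tek was above background on 0 arrays. Lymphocyte markers (4 of 7 lower, 1 at an unadjusted p of 0.05, median -0.07), mast cell markers (4 of 7 lower, median -0.03) and squamous epithelium markers (2 of 2 lower, median -0.168) complete the lists. None of these lists had a marker past the adjusted threshold. The part of fibroblasts, macrophages, neutrophils and endothelium in the protease differences was not tested.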

How the data were processed

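Colon mucosa RNA of 17 rats was read on 2-colour Agilent arrays, 1 array per rat. The deposited scanner files hold spot intensity values of both dyes, which per the file headers came from Feature Extraction 9.5.1.1 (9.5 in the submitters' processing notes). The deposited series matrix holds log2 values. What the authors did to make them was not given in the sources used here, and they served as an alternative only.

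Intensities were corrected by normexp (offset 50) and normalised by loess within each array, using limma 3.58.1 (R 4.3.3), with no weight on control spots or on outlier flags. Flagged values were left out, and replicate spots were averaged by probe, giving 41012 probes. A probe needed a Cy5 signal well above background on 8 or more arrays, and the 27101 that had one were tested with lmFit and eBayes, two-sided, with Benjamini-Hochberg adjustment over all of them. Correlations used 100000 two-sided permutations within diets (exact for 1 diet) in Python 3.11.15. The number of rats limits the precision. The fit was checked on simulated arrays.

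Probe names were updated with the RefSeq table (GRCr8), through accessions (10735 probes), symbols (5577) or synonyms (3730). The array's own name was kept for 20970. In the lists, a gene with more than 1 probe was read by the probe with the highest mean net Cy5 signal over all arrays. The 6 genes and the lists were chosen with earlier results of these data known. Besides the 6, the text names the 4 genes with the smallest p in each pathway list and the 5 most alike genes of each member, and says where a gene was named otherwise; genes of the cluster, Tnf, Il6 and markers with no signal were named for their role. The values of 1 gene of the activation list are not reported here.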

Additional observations from a re-analysis of the deposited data

Results flagged for a closer look

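Single rats far from the rest of their diet group were searched by Dixon's gap ratio (the gap to the nearest rat over the group's whole range) in 80 groups of values, of which 7 passed the 95% critical value of 0.526 for 8 rats or 0.493 for 9. Chance gives about 1 in 20.

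High calcium rat 3 accounted for 4 of the 7, on the high side each time. Its log2 ratio was 0.71 for Mmp3, where the next rat had -0.50 (gap ratio 0.79), 0.39 for Mmp13 with the next at -1.56 (0.737), 0.62 for Mmp10 with the next at -1.10 (0.669) and 0.58 for Mmp9 with the next at -0.51 (0.599). The other 3 were low calcium rat 6, high for Mmp3 at 1.14 with the next at 0.44 (0.527), high calcium rat 14, high for Tgfb1 at 0.09 with the next at -0.07 (0.56), and high calcium rat 17, high for the mean of the squamous epithelium markers at 0.44 with the next at -0.15 (0.649), a mean of only 2 tested markers. The cause of these values was not tested.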

How the results depend on the processing

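No paired analysis was possible because each rat's number is unique and no number is shared between the diets. Each of the 6 differences was negative under every alternative run, and 0 of the 6 passed after adjustment under the 14 processing alternatives. The range over these was -2.41 to -1.73 for Mmp13, -2.49 to -1.41 for Mmp10, -2.38 to -0.64 for Mmp3, -0.45 to -0.38 for Mmp7, -0.39 to -0.30 for Mmp12 and -0.76 to -0.20 for Mmp8. Leaving out 1 rat gave -2.22 to -1.76, -1.90 to -1.51, -0.90 to -0.62, -0.49 to -0.39, -0.41 to -0.28 and -0.29 to -0.21 in the same order. Probes past the threshold then numbered 0 to 193, and the 5 members with signal on every array 0 to 3. Other metalloproteinases past it numbered 0 to 2, activation genes 0 to 1 and substrates 0 to 11. The highest values came without rat 3. Without rat 16 they were 38, 2, 1, 0 and 1, in the same order. Without rats 3 and 16 together they were 328 (313 lower), 3, 3, 1 and 12, with 1 transcription factor. Mmp13 was then -2.39, Mmp10 -2.02 and Mmp7 -0.52, all past the threshold. Mmp3 passed without rat 3 and without both (-0.95), but is not counted, since it met the filter through the low calcium arrays. Probes at an unadjusted p of 0.05 numbered 2382, against 780 under median centring and 3790 with array weights; under median centring 4 of the 6 were below 0.05. The exact permutation test gave unadjusted p of 0.000535 for Mmp13 and 0.000905 for Mmp10 (adjusted 0.37 for both).

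Pairs past the threshold numbered 4, against 8 under median centring, 15 with diet means kept, 1 without rats 3 and 16, and 1 to 4 when 1 rat was left out (1 without rat 3). Signs turned for Timp1 under median centring (0.0043), for Osm with Cy5 alone (0.0185), and for Mmp10 with Mmp7 (r of -0.119 to 0.313 when 1 rat was left out) without rat 3 (-0.119), without rat 16 (-0.00653) and without both (-0.44). Without both they also turned for Mmp13 with Mmp7 (-0.258), Mmp3 with Mmp7 (-0.0489) and Mmp3 with Mmp12 (-0.0028). The cause of each was not tested. A mean over probes was not run, because each gene had 1 probe; Aquantile leaves log ratios as they are; and Mmp3 had no value when signal on all 17 arrays was required. Dim signal limits the sizes for Mmp3 and Mmp8.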
